A study of Mus musculus with 6 samples.

Results

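The region described here is a 10001-base segment of mouse chromosome 1, from 24615000 to 24625000 in build mm9, that resembles mitochondrial DNA. Its members are the 5′ ends of RNA fragments listed there on either strand in degradome libraries of 6 tissues. There were 5 such ends among 496758 in all libraries. They held 20762 of 935685 reads, which is 2.22% of the reads listed. The segment was chosen by its position with its read levels already known, so its level, its strongest end and its rank in a library are descriptions and carry no test.

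The libraries were made by PARE, parallel analysis of RNA ends, from brain, lung, liver, kidney, ovary and spleen, with 1 library per tissue. All came from adult mice of the BALB-c genetic background with no treatment named in the labels, and each sample was a whole tissue with all its cell types. Polyadenylated RNA was selected with oligo(dT), an adaptor was ligated to fragments with a 5′ monophosphate, and cDNA was primed with oligo(dT). The enzyme MmeI then left a tag of about 20 nt (nucleotides) beside the adaptor, so the first base of a tag marks where an RNA molecule began. The extraction text in the labels names only brain, liver or lung as the source of RNA. The libraries held 36981 listed reads in brain and 32895 in ovary, 51867 in spleen and 86396 in liver, and 179728 in kidney and 547818 in lung. As a check of the labels, tags within the RefSeq sequence from 250 bases before to 50 bases after the start of Kap, the kidney androgen regulated protein gene, reached 989 reads in kidney, against 125 in lung, 3 in spleen, 1 each in liver and ovary and 0 in brain. Hbb-bs, an adult beta globin gene of red blood cells, was counted in the same way. It had 71 reads in lung, 2 each in liver and kidney, 1 in brain and 0 in ovary and in spleen. This count did not set spleen apart. It took only tags near the start of the gene and was not scaled to library depth. Globin tags further along the gene were not counted. Further marker genes of the tissues were not analysed here.

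Mitochondria carry a small circular genome that encodes subunits of the respiratory chain, and their RNA is abundant in tissues with high energy demand. The genome is transcribed as long precursors in which tRNAs separate most of the mRNAs. Enzymes cut the tRNAs out, which leaves the next mRNA with a 5′ monophosphate at its first base, and most of these mRNAs then gain a poly(A) tail. RNA of this kind is therefore open to the PARE procedure. Copies of mitochondrial DNA inserted into nuclear chromosomes, called NUMTs, are common in mammals, and short reads from the mitochondrial RNA can be listed at such a copy. The RefSeq gene table of GRCm38.p6 holds 37 mitochondrial genes, of which 13 encode proteins, 22 tRNAs and 2 rRNAs. It lists ND3, a subunit of complex I, directly after the glycine tRNA gene TrnG with 0 bases between them. On chromosome 1 that table lists 2 neighbouring pseudogenes between Tubb4b-ps2 and Lmbrd1. One is Gm10925, which has mt-Atp6 among its synonyms and the same length of 681 bases as mitochondrial ATP6. The other is Gm10222, whose 297 bases equal the length of mitochondrial ND4L. Whether the mm9 segment holds these pseudogenes was not tested, because the table belongs to another build, and the resemblance to mitochondrial DNA was not checked by sequence.

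The sequences at the strongest end are shown because none of its reads had the sequence that its tags share. The first line is the majority base at each of the 20 positions over all tags of that end, minus strand, first base at chr1 24619958. The other lines are the 5 tags with the most reads, and the capital marks the base that differs from the first line.
majority sequence, with 0 reads: atcaacctgtacactgttat
T10C tag, with 3155 reads: atcaacctgCacactgttat
G16C tag, with 2896 reads: atcaacctgtacactCttat
G16A tag, with 2546 reads: atcaacctgtacactAttat
T10A tag, with 2053 reads: atcaacctgAacactgttat
A1C tag, with 1213 reads: Ctcaacctgtacactgttat
In each name the majority base comes first, then the position counted from 1 at the 5′ end of the tag, then the base in the tag. From general knowledge, the majority sequence reads as the first bases of mouse mitochondrial ND3, and this was not checked here against a mitochondrial sequence. The files list 21 chromosomes and 0 reads on the mitochondrial chromosome.

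All 5 ends of the segment fell within 21 nt of its 10001 bases, and the tags from them covered 33 nt. The strongest end, on the minus strand at 24619958, held 20688 reads, or 99.6% of the segment. It was read in all 6 libraries, with 12665 reads in kidney, 5408 in lung, 1279 in brain, 716 in ovary, 602 in liver and 18 in spleen. The end 1 nt further into the tag, on the minus strand at 24619957, held 70 reads, of which 28 were in lung, 23 in kidney, 10 in brain, 5 in ovary, 4 in liver and 0 in spleen. The other 3 ends held 4 reads between them. Those were 2 reads on the minus strand at 24619969, 1 from kidney and 1 from spleen, 1 kidney read on the minus strand at 24619959 and 1 lung read on the plus strand at 24619949. Outside the limits, the nearest tag listed on the lower side of chromosome 1 was 59891 bases from the strongest end, with 2 lung reads. On the upper side it was 41348 bases from that end, with 1 spleen read. The ends in the segment thus stand alone, with no tag near its limits on either side.

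The share of the segment's reads at the strongest end was much alike in the 5 libraries other than spleen. It was 99.8% in kidney (exact Clopper-Pearson 95% interval 99.7 to 99.9), 99.5% in lung (99.2 to 99.6), 99.3% in liver (98.3 to 99.8), 99.3% in ovary (98.4 to 99.8) and 99.2% in brain (98.6 to 99.6). In spleen 18 of 19 reads lay there, 94.7% with an interval of 74.0 to 99.9. These and all other intervals cover counting error only, since reads copied by PCR are not independent molecules and each tissue has a single library.

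Every one of the 143 distinct sequences at the strongest end differed from the majority sequence by exactly 1 base. The 20688 reads divided into 20158 with a substituted base, in 125 sequences, and 530 with an uncalled base N, in 18 sequences. No read of the end matched the majority over its whole length, and a count of 0 among 20688 reads allows a share of up to 0.0145%. For 14 reads the first 20 bases were those of the majority, and these longer tags differed at position 21. Elsewhere in the 6 libraries 0 reads equalled the majority sequence. Most tags of the end were 20 nt long, with 20171 reads or 97.5%, and 475 reads had 21 nt, 35 had 19 nt, 6 had 22 nt and 1 had 18 nt.

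The second end also had no read equal to its majority sequence. Its tags, with the majority sequence in the first line, were the following, shown because they lack the exact sequence too.
majority sequence at 24619957, with 0 reads: tcaacctgtacactgttatct
T16C tag, with 15 reads: tcaacctgtacactgCtatct
T16A tag, with 9 reads: tcaacctgtacactgAtatct
All 32 sequences and 70 reads at this end differed from the majority by 1 base. Of the reads, 39 differed at position 16 and 7 at position 10. Tag lengths were unlike those of the strongest end, with 52 reads of 21 nt and 9 of 20 nt. Its majority sequence runs past the 20 bases shown for the strongest end by the bases c and t. Longer tags of the strongest end also reach these bases.

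The few tags that reached across the strongest end, on either strand, showed what lies upstream of it. The lower-case bases in the next line are the 11 bases before the end, and the capitals are the 22 bases from the end on, joined from the majority bases of the overlapping tags.
joined stretch, minus strand, chr1:24619937-24619969: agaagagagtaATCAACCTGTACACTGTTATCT
Tags across the end, each with 1 read and its difference in capitals, were these.
T21C across the end: agaagagagtaatcaacctgC
A1T across the end: Tgaagagagtaatcaacctgt
A6C across the end, from the plus strand and written as its reverse complement: agaagCgagtaatcaacctgt
T18C beginning 1 nt before the end: aatcaacctgtacactgCtat
Against this joined stretch, all 20762 reads of the segment differed at 1 position, 0 matched and 0 differed at 2 positions. The upstream bases rest on 3 reads, and the base directly before the end on 4.

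Ends outside the segment were read with their majority sequence. Among 2427 other ends with at least 20 reads over the 6 libraries, the median share of reads equal to the end's own majority sequence was 97.6%. That share was at least 90% at 97.7% of these ends, and 5 ends were under 50%. With the segment counted in, 4 of 2429 ends (0.165%) had no read equal to the majority, and 2 of these 4 were the segment's. The strongest end outside the segment, with 10582 reads, had 73 distinct sequences and 96.9% of its reads equal to the majority.

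**Figure D1:**
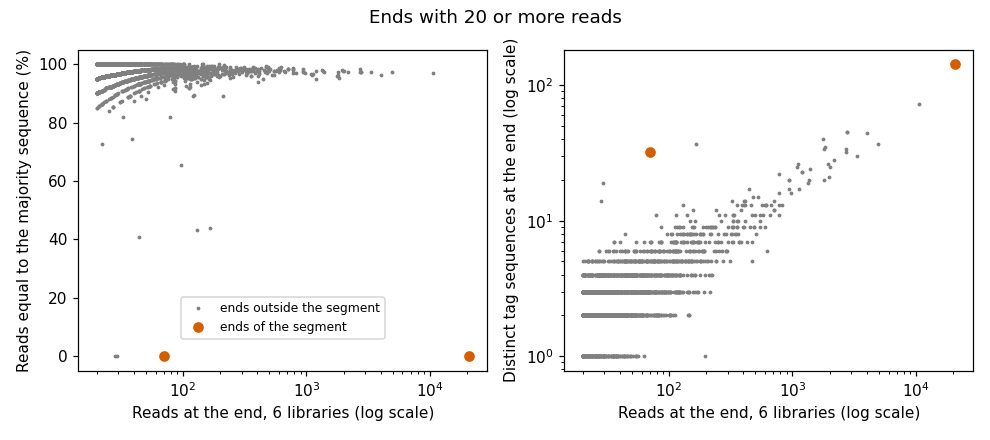
Each point is a 5′ end with at least 20 reads summed over the 6 libraries, placed by its reads on a log axis. The left panel gives the share of reads equal to the end's majority sequence in percent, and the right panel the number of distinct tag sequences on a log axis. The segment's ends, in orange, lie at 0% with 20688 and 70 reads, while the median of the other ends is 97.6%.

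A set of 347 other ends with at least 100 reads gave a measure of single differences away from the segment. Of their 132812 reads 97.2% equalled the majority sequence, 2.83% had 1 difference and 0 reads had 2 or more. For each read with 1 difference there were 34.4 equal reads. The share equal at those ends was 95.3% in brain, 96.6% in kidney, 97.0% in ovary, 97.3% in lung, 97.6% in liver and 97.6% in spleen, where the segment had 0% in all 6. Reads with an uncalled base made up 3.33% of the 1-difference reads at those ends and 2.56% of the reads at the segment's strongest end. The number of mismatches that the authors' alignment allowed is not given in the sources used here, and its part in these values was not tested.

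The differences fell on few positions. Position 16 held 28.2% of the reads of the strongest end and position 10 held 27.9%. Position 17 followed with 11.3%, position 1 with 9.24% and position 15 with 5.01%, and position 3 held 0 reads. At the 347 other ends, positions 16 and 10 were also the highest among reads with 1 difference, and there position 1 came next. There, position 16 held 31.2%, position 10 held 12.9% and position 1 held 7.53%. Positions 10 and 16 held together 44.1% against 56.2% in the segment, and position 3 was the lowest of the 20 with 1.24%. Position 17 was higher in the segment, 11.3% against 2.34% at the other ends, and position 15 held 5.01% against 3.86%. The profiles over 20 positions had a Pearson correlation of 0.86 and a Spearman correlation of 0.66. A second comparison limited the other ends at each position to those whose majority base is the segment's. It also took differing reads as a percent of all reads at those ends. With both changes the correlations were 0.86 and 0.88. These are given as a description, since positions share libraries, sequencing cycles and base composition.

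**Figure D2:**
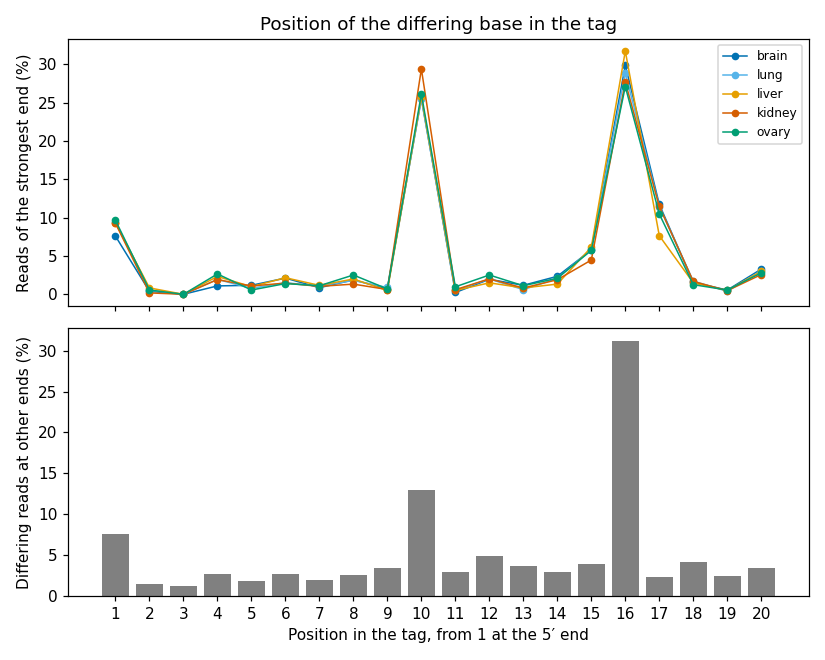
The upper panel plots, for the 5 libraries other than spleen, the percent of reads of the segment's strongest end that differ from the majority at each tag position. The lower panel plots the percent of 1-difference reads at each position over 347 other ends. Peaks stand at positions 10 and 16 in both panels, and the lines of the 5 libraries lie close together.

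Nearly every possible single change of the majority sequence was listed. Of 60 substitutions over 20 positions 57 occurred, and the 3 that did not were those of position 3. Lung and kidney held 57 each, brain 54, ovary 47, liver 45 and spleen 8. In all 5 libraries other than spleen, 40 substitutions were listed. With all tag lengths pooled, T10C had 3235 reads, G16C 2974, G16A 2609, T10A 2108 and A1C 1244. The 4 leading substitutions made up 52.8% of the reads. A change of T to C was the most frequent kind, with 27.5% of the reads, close to its 27.3% at the other ends. Changes of G to C (14.5% against 4.16%) and of G to A (12.9% against 3.62%) took larger shares than at the other ends, and changes of C to A a smaller one (4.70% against 12.3%). The segment's majority sequence holds its own mix of bases, so these shares are not rates per base.

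The leading substitutions had similar shares across the 5 libraries other than spleen, though some kidney and lung intervals did not meet. For T10C the exact 95% interval ended at 15.502% in lung and began at 15.549% in kidney. T10C made up 14.5% of the reads of the strongest end in lung (exact 95% interval 13.6 to 15.5), 14.6% in brain (12.7 to 16.7), 15.6% in ovary (13.1 to 18.5), 16.1% in liver (13.3 to 19.3) and 16.2% in kidney (15.5 to 16.8), beside 3 of 18 reads in spleen. T10A was highest in kidney, 11.2% (10.6 to 11.7), and was 9.23% in brain (7.70 to 10.9), 8.67% in lung (7.94 to 9.45), 8.38% in ovary (6.46 to 10.7) and 7.81% in liver (5.79 to 10.2). The kidney interval does not meet that of lung or liver, and it meets those of brain and ovary. G16C was 13.9% in kidney (13.3 to 14.6) and 15.3% in lung (14.3 to 16.3), with intervals that meet. A1C lay between 4.93% in brain and 6.84% in ovary (5.11 to 8.95). In spleen A1C made up 5 of 18 reads, 27.8% with an interval of 9.69 to 53.5, which lies above those of the other 5 libraries.

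A few substitutions were nearly absent from 1 library. T2C had 1 read in kidney, where the share of the other libraries gives 55.3 reads, and 0 as a tag of 20 nt. T2C was read 24 times in lung, 4 times each in brain and ovary and 3 times in liver. T20G had 3 reads in kidney, where that share gives 64.7, although lung had 27 reads and brain 8. G16T had 1 read in lung, where that share gives 30.1, and 69 in kidney, 10 in brain, 2 in ovary and 4 in liver. No 20-nt tag of T20G was listed in kidney or of G16T in lung. Over the 136 pairs of a substitution and a library with at least 10 reads at the other libraries' share, these 3 were under 0.1 of it, 5 lay between 0.1 and 0.5, 126 between 0.5 and 2, and 2 above 2. The gaps thus concern single sequences, while the rest of the pattern was shared.

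**Figure D3:**
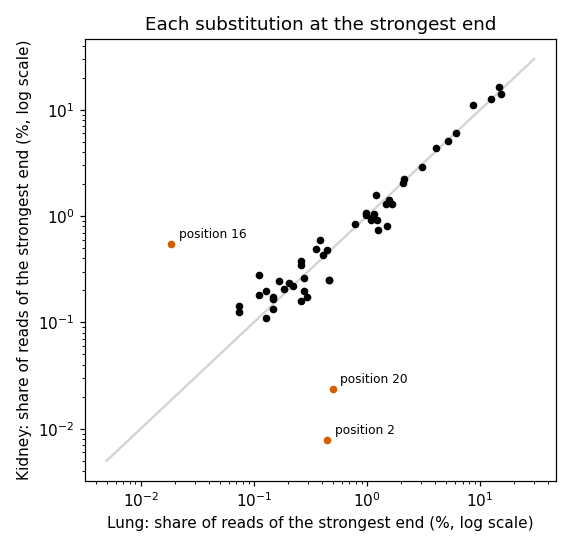
Each point is 1 base substitution at the strongest end with at least 20 reads in all, placed by its share of the end's reads in lung and in kidney, both in percent on log axes, with a grey line at equal shares. Most points follow the line up to T10C with 14.5% in lung and 16.2% in kidney, and the 3 orange points at positions 2, 16 and 20 lie far from it.

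The number of distinct sequences differed between the libraries, as did the reads behind them. The strongest end had 115 sequences in lung, 108 in kidney, 83 in brain, 65 in ovary, 61 in liver and 12 in spleen. At 602 reads, the depth of liver, 65.9 sequences would be seen in brain, 62.1 in lung, 61.5 in ovary and 56.8 in kidney, against 61 in liver. The effective number of sequences, which weights them by their reads, was 13.3 in brain and in ovary, 13.2 in lung, 12.2 in kidney, 12.0 in liver and 8.53 in spleen. Kidney, with the most reads, had the fewest sequences of the 5 at equal depth.

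The level of the segment differed widely between the libraries. Kidney had 12690 reads, which is 70607 CPM, reads scaled to 1000000 listed reads (exact Poisson 95% interval 69384 to 71846) or 7.06% of the library. Brain had 1289 reads and 34856 CPM (32979 to 36812). Ovary had 721 reads and 21918 CPM (20347 to 23578). Lung had 5437 reads and 9925 CPM (9663 to 10192). Liver had 606 reads and 7014 CPM (6467 to 7596). Spleen had 19 reads and 366 CPM (221 to 572), or 0.0366% of its reads. In CPM over all reads, kidney was the highest and spleen far below the rest, and the intervals of the 6 libraries did not meet. This order rests on the reads of the strongest end. Without that end the ratio of kidney to brain was 0.514, on only 25 reads in kidney and 10 in brain, with no interval computed. With each distinct sequence counted once, in the segment and in the library total, the ratio was 0.339. Spleen then had 434 and lung 426 distinct segment sequences per 1000000 distinct sequences. Lung and kidney already held 57 of the 60 possible substitutions at the strongest end. This measure therefore depends on depth and gives no order of tissues. In whole tissues, fewer cells of a type and less RNA per cell cannot be told apart, and with 1 library per tissue these differences have no replicate check.

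The ratios between neighbours in this order describe these libraries and carry no test. Kidney exceeded brain by 2.03 times (exact conditional binomial 95% interval 1.91 to 2.15), brain exceeded ovary by 1.59 times (1.45 to 1.74), and ovary exceeded lung by 2.21 times (2.04 to 2.39). Lung exceeded liver by 1.41 times (1.30 to 1.54) and liver exceeded spleen by 19.1 times (12.2 to 32.0). Kidney stood 193 times above spleen (123 to 320). The scaling changed the order: with depths rescaled by the trimmed mean of M values (TMM) over windows of 2 kb, the ratio of ovary to lung was 0.726, so that lung lay above ovary, while kidney exceeded brain by 4.44 times and brain exceeded lung by 1.25 times. The order between brain, ovary and lung is therefore given only for CPM.

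The strongest end of the segment was also the strongest of all ends in kidney, 13.2 times the next with 957 reads, and in brain, 1.32 times the next with 971 reads. Its rank was 2 in ovary and lung, 3 in liver and 181 in spleen. An end was called led by a library when its level there was at least 2 times that in each other library. By this rule the strongest end was led by kidney, 2.04 times brain (1.92 to 2.16), with the threshold of 2 inside the interval. Of all ends with at least 20 reads, 11.6% were led by kidney, and nothing is read from this since the segment was picked for its level. The second end was highest in brain, 1.78 times ovary (0.554 to 6.63), and was not led by any library, where 1.32% of the ends were led by brain.

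**Figure D4:**
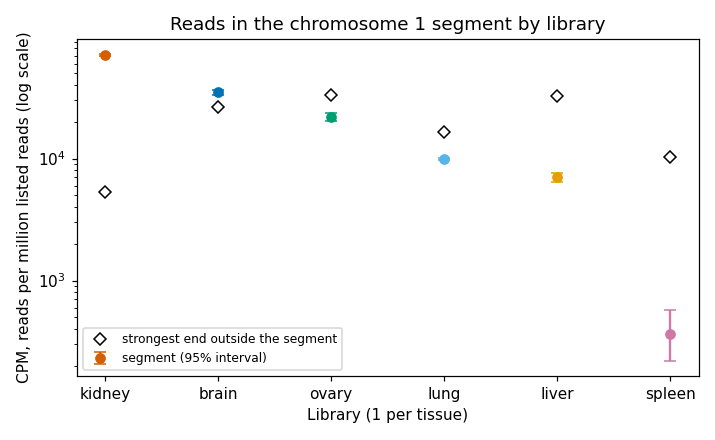
Filled points give the segment's level in CPM on a log axis in each of the 6 libraries, with exact Poisson 95% intervals, and open diamonds the strongest single end outside the segment in the same library. The segment lies above the diamond in kidney and brain and far below it in spleen, where the segment has 366 CPM.

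Some tags of the segment were also listed at a second location. There were 13 such entries from 9 sequences with 492 reads, 2.37% of the segment's reads, in kidney (386 reads), lung (94) and brain (12). The second locations were 4 ends on plus strands, at chr10 70392294, chr12 69713707, chrX 67903180 and chr1 61451560. Together these 4 ends held 28 reads, of which 21 were of the shared sequences. The sequence A4C, printed next with the base that differs in capitals, was listed at the chromosome 10 end too and shows the pattern.
A4C tag: atcCacctgtacactgttat
In kidney it had 131 reads in the segment and 5 at chromosome 10, in lung 53 and 2, and in brain 4 and 1. In kidney C7A had 106 reads in the segment and 1 at the other chromosome 1 end. T20A had 113 there and 1 at the chromosome 10 end, and C12G had 35 and 2 at the chromosome 12 end.

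Unequal counts at paired locations were rare away from the segment. Over the 6 libraries, 30843 sequences were listed at 2 locations, counted per library, and 30832 had the same read count at both. Of the 11 with unequal counts, 10 were in the segment, which had 13 such sequences in all, and all 10 had more reads in the segment than at the other location. Outside the segment 1 of 30830 was unequal. Most sequences at 2 locations had 1 read, for which equality is unremarkable, but of 4989 with at least 2 reads at a location 4978 were equal. How counts were assigned to the locations is not given in the sources used here.

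Tags resembling the majority sequence were rare elsewhere. Outside the segment, 25 reads differed from it at 1 position, 28 at 2 and 18 at 3. The sequences shared with the segment, with 21 reads at the 4 second locations above, each differ from the majority sequence at 1 position. Whether tags elsewhere, or those of the segment, are of mitochondrial origin was not tested, since no mitochondrial or protein sequence was used here.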

How the data were processed

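Samples took their group from the labelled tissue, 1 library each. Tags were aligned to mm9 with Bowtie, per the submitters' processing notes, and neither a version nor a mismatch limit for it is given in the sources used here. A deposited line holds a tag, its location and its read count within the name. The deposited score is a display value and was not used. Levels are reads per 1000000 listed reads, sequences at 2 locations included at both. Tags of the minus strand were complemented, and an end is the first base of the tag. The majority sequence takes the most frequent base at each position. Intervals were computed with SciPy 1.17.1 and NumPy 2.4.6 under Python 3.11.15. Scripts were tested on simulated data. The naming rule took the 20 strongest ends of the segment, the strongest per strand and library, and the 5 most frequent sequences of the strongest end. Members and lists were chosen with earlier results of these data known. The planned translation of tags against mitochondrial proteins was not run. Alternatives covered depth, sequences at 2 locations, the limits and the definition of an end. The other ends with no read equal to their majority sequence are not reported here.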

Additional observations from a re-analysis of the deposited data

How the results depend on the processing

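Of 84 results under alternatives, 38 were counted as the same and 46 as changed. Beside each value below that has no stated construction, the cause was not tested. A result counted as the same could still shift in value. The level in spleen, 366 CPM, was 442 with reads at 1 location as the depth and 268 with TMM depths. The 143 sequences became 110 when only those with at least 2 reads were kept. Both were counted as the same. The values that follow were counted as changed. With reads at 1 location as the depth, levels in CPM were 78203 in kidney, 38614 in brain, 24681 in ovary, 11026 in lung and 7676 in liver. With TMM depths they were 104014, 23409, 13625, 18759 and 8252 in the same order, and kidney over brain was 4.44. Without the 10 fullest windows in the depth they were 83542, 38658, 24292, 11557 and 8844, and kidney over brain was 2.16. Without sequences at 2 locations kidney had 68459. Without the strongest end levels were 270.4 in brain, 152.0 in ovary, 139.1 in kidney, 52.9 in lung, 46.3 in liver and 19.3 in spleen. They rest on 10, 5, 25, 29, 4 and 1 reads in that order. Kidney over brain was then 0.514, with no interval computed. Counting each distinct sequence once, per 1000000 distinct sequences of the library, gave 3095 in brain, 2630 in ovary, 1259 in liver, 1048 in kidney, 434 in spleen and 426 in lung. Of these, the spleen value was counted as the same. Kidney over brain was then 0.339. This measure depends on depth and gives no order of tissues. The share at the strongest end was 100% in brain, liver and ovary, 99.98% in lung and 99.99% in kidney within 1 nt of it. Counting each sequence once, it was 95.6% in ovary, 93.8% in liver, 89.2% in brain, 87.1% in lung and 86.4% in kidney. The 5 ends became 3 when merged within 1 nt and 2 with sequences of at least 2 reads, by construction. The 143 sequences became 70 among tags of 20 nt. With a 3-fold threshold 0 ends were led by kidney. The 21 reads shared with other locations became 0 without sequences at 2 locations, by construction. The alternative asking for 1 residue more in a protein match was not run, and no replicate could be left out. No paired analysis was possible because each tissue has 1 library. Spleen values within the segment rest on 19 reads.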
